A study of Mus musculus with 12 samples.

Results

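Colon mucosa of mice that lack the nuclear receptor PPARβ/δ (gene Ppard) in cells of the FSP-Cre lineage was compared with colon mucosa of floxed littermates. The comparison held 6 of the 12 arrays of the series, chosen by their titles, with 3 knockout and 3 floxed colon arrays, and the other 6 arrays carried ileum mucosa of the same genotypes. The knockout genotype is given as FSPCre-PPARB -/- and the control genotype as PPARB flox/flox, both on C57BL6/J. Both groups are labelled as untreated male littermates that were 4 to 6 weeks old. Mucosa was cut by laser from stained sections, its RNA was amplified with a kit for very small amounts, and it was hybridised to an array of exon regions and exon junctions. A single label field speaks of tumours, against mucosa in the titles, the design and the tissue field. Nothing in the labels says whether arrays of a group came from separate mice beyond their numbers, so p-values cover only the spread of these samples, part of which may be technical.

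PPARβ/δ is a fatty acid-activated transcription factor that pairs with an RXR receptor on DNA and is known for inducing genes of fatty acid uptake and oxidation, such as Cpt1a, Pdk4 and Angptl4. In the gut it is made by epithelial cells as well as by stromal cells. FSP is fibroblast-specific protein 1, the product of S100a4, whose promoter is known to be active in fibroblasts and in some cells of bone marrow origin. A Cre of that kind leaves the gene whole in epithelial cells that never used the promoter. In a piece of mucosa that holds many cell types, a lower number of cells of a type and less RNA per cell cannot be told apart.

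Each gene was given the median of the deposited log2 intensities over its array rows, where a row is an exon region or a junction, and a difference is the knockout mean minus the floxed mean on that log2 scale. Values of knockout arrays 1, 2 and 3 are given in that order, and likewise those of floxed arrays 1, 2 and 3. A probe's brightness depends on its sequence as well as on the amount of RNA, so levels of different genes are not compared as abundance. Tests are two-sided limma tests over all 31276 genes, with p-values adjusted by the Benjamini-Hochberg method and called at 0.05. The number of arrays limits the precision of every value.

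The targeted gene did not separate the groups. Ppard was at 7.27, 6.96 and 6.42 on the knockout arrays, against 6.91, 6.67 and 6.63 on the floxed arrays. Knockout 1 was the highest and knockout 3 the lowest of the 6, so the groups overlapped. The difference was 0.15 (standard error 0.20, adjusted p = 0.89 in limma), and it was -0.04 without knockout 1 and -0.14 after quantile normalization. Of its 23 rows, 14 exon regions and 9 junctions, 8 had a negative and 15 a positive difference. A single dim junction row lay lower on all knockout arrays, at 2.46, 2.80 and 2.46, against 3.24, 3.35 and 4.54 on the floxed arrays. An exon region lay higher on all knockout arrays, at 7.91, 7.69 and 7.54, against 7.43, 7.34 and 7.28 on the floxed arrays. Among all 719071 rows, 6.08% lay lower and 4.28% higher on all 3 knockout arrays. Rows outside the floxed exons check nothing, and the labels do not say which exons are floxed. The gene that drives the Cre was dim. S100a4 was at 3.16, 3.57 and 3.57 on the knockout arrays, against 3.59, 3.77 and 4.23 on the floxed arrays. In this gene value the knockout arrays all lay lower, as in 6.18% of all genes, with a difference of -0.43 (standard error 0.33, adjusted p = 0.84 in limma). Of its 9 rows 7 had a negative and 2 a positive difference, and 0 lay lower on all knockout arrays.

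The tissue label held against the ileum arrays. Car1, a carbonic anhydrase of colon epithelium, lay between 7.33 and 10.82 on the colon arrays and between 2.55 and 3.60 on the ileum arrays. Fabp6, the bile acid binding protein of ileal enterocytes, lay between 3.06 and 4.11 on the colon arrays and between 9.87 and 11.04 on the ileum arrays.

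The label of sex did not hold for most arrays. Xist, the RNA that coats the inactive X chromosome of female cells, was at 3.27, 6.57 and 6.30 on the knockout arrays, against 6.72, 6.17 and 5.74 on the floxed arrays. Knockout 1 was the lowest colon array in 37 of the 41 Xist rows. Kdm5d, a histone demethylase gene on the Y chromosome, was at 3.39, 2.57 and 2.52 on the knockout arrays, against 2.47, 2.61 and 2.52 on the floxed arrays. The Y-linked gene Eif2s3y was at 3.41, 2.21 and 2.05 on the knockout arrays, against 2.14, 2.60 and 2.13 on the floxed arrays. So knockout 1 had low Xist and the highest values of both Y-linked genes, while the other 5 colon arrays had high Xist and go against the label of male mice. Ileum knockout 1 showed the same pattern, with Xist at 3.26 and Kdm5d at 3.43, where the other ileum arrays had Xist between 5.21 and 6.61 and Kdm5d between 2.52 and 2.74. In the colon, then, the knockout group mixed 2 such patterns and the floxed group had only the Xist-high pattern. Values without knockout 1 are given in most cases where leaving it out moved a difference or median by over 1.5 times.

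The colon arrays also differed in some genes, among them a gene of position along the gut. Hoxb13, a homeobox gene of the distal end of the body axis, was at 4.08, 5.48 and 6.14 on the knockout arrays, against 4.61, 7.02 and 3.98 on the floxed arrays. Floxed 2 was also the highest array for Atp12a, the potassium pump of the colon, at 6.17, where the other 5 lay between 3.50 and 4.30. The secreted lectin Reg4 was at 3.39, 6.10 and 5.32 on the knockout arrays, against 3.78, 6.71 and 3.43 on the floxed arrays. In Hoxb13 as in Reg4 floxed 2 was highest, and knockout 2 and knockout 3 came next. In turn floxed 2 had the lowest value of Fabp2, the fatty acid binding protein of absorptive cells, at 2.77, where the knockout arrays lay between 6.40 and 7.65 and the other floxed arrays at 6.93 and 5.70. Its values of the antimicrobial lectin Reg3g and of the retinal dehydrogenase Aldh1a1, at 4.10 and 4.08, were the lowest of the 6 as well. Hoxb13, Atp12a, Reg4, Fabp2 and Aldh1a1 were chosen for this description after their values had been seen. Some other genes of regional identity did not follow Hoxb13. Hoxb9 on floxed 2, at 6.47, lay within the range of the others. Hoxd10 lay between 3.72 and 3.89 on the colon arrays, within its ileum range of 3.49 to 4.22. It did not tell colon from ileum here, so its values cannot speak to position. Cdx2 was lowest on floxed 2, at 5.40. Over 15 genes of regional identity, floxed 2 had the lowest mean of the 6 arrays, at 4.92. The labels give no position within the colon. What these array differences add to the genotype difference was not tested, and values without floxed 2 are given by the same rule as those without knockout 1.

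**Figure D1:**
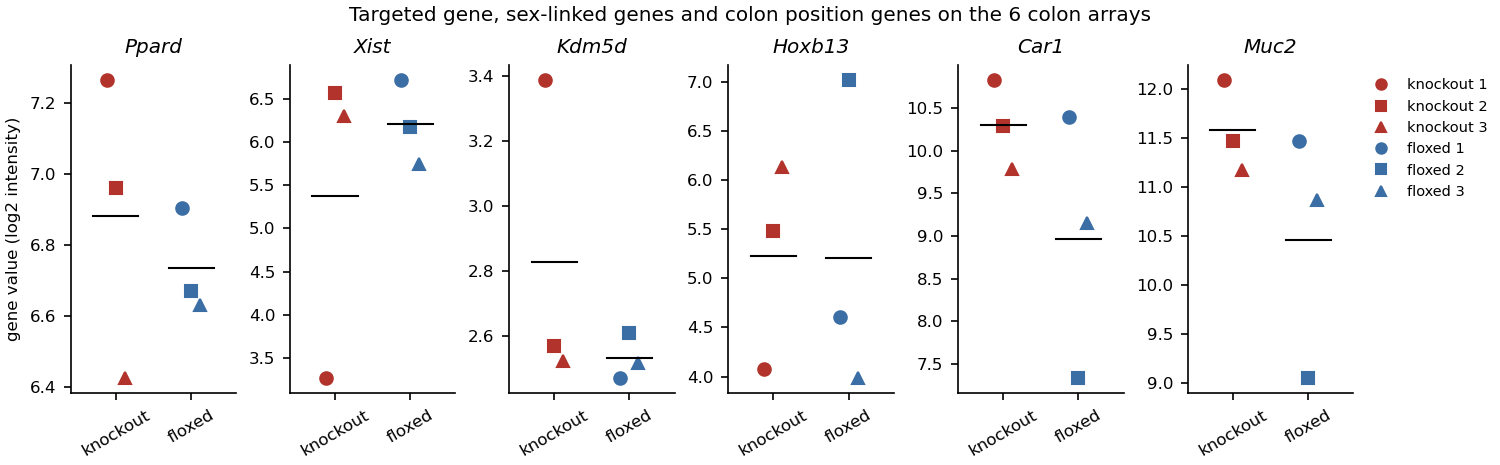
Gene values (y axes, log2 intensity) of 6 genes on the 3 knockout and 3 floxed colon arrays, where each point is an array, marker shapes give the array number and black lines are group means. Knockout 1 stands alone in Xist (3.27) and Kdm5d (3.39), and floxed 2 is highest in Hoxb13 (7.02) and lowest in Car1 (7.33) and Muc2 (9.05).

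No gene passed the test between knockout and floxed colon mucosa. Of 31276 genes 0 were called (0.0%), with a smallest adjusted p of 0.844 in limma, and 1494 genes (4.78%) had an unadjusted p under 0.05, of which 706 (2.26% of all genes) were higher. All 3 knockout arrays lay above all 3 floxed arrays in 1262 genes (4.04%) and below them in 1932 genes (6.18%). The median difference over all genes was -0.01, and 49.0% of genes had a positive difference. Without knockout 1 the count of genes called was again 0, with 1131 genes at an unadjusted p under 0.05, and without floxed 2 it was 0 with 896. Single exon regions and junctions gave 0 calls over 719071 rows (0.0%), with 35899 at an unadjusted p under 0.05. The 95% interval of a difference reached 0.40 to either side in the median gene. In 28325 genes (90.6%) the whole interval lay between -1 and 1, that is, within a 2-fold change of signal either way. Only 2904 genes averaged above 5.82, the 95th percentile of negative control rows, on the colon arrays. For dimmer genes a narrow interval in signal does not bound a change in RNA. A change in cells that are few in the mucosa can be smaller than these intervals in the whole sample, and was then not detectable.

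The difference between the groups went with the brightness of a gene. Genes whose mean over the 12 arrays was below 3 had a median difference of -0.08, those between 5 and 6 a median of 0.10, and those between 7 and 8 a median of 0.40. Above 8, 95.4% of 562 genes had a positive difference. Of the 2432 genes above 6, knockout 1 was the highest colon array in 51.9% and knockout 2 in 26.7%, while floxed 2 was the lowest in 46.3% and floxed 3 in 28.7%. Knockout 3 and floxed 1 lay against their groups, with median deviations from the mean of the 6 arrays of -0.17 and 0.10 among genes between 7 and 8. The 2432 genes had a median difference of 0.30 and 84.4% were positive. Without knockout 1 this was 0.16 and 76.0%, and without both knockout 1 and floxed 2 it was 0.11 and 68.7%. After quantile normalization the median was 0.01 and 51.5% were positive. A measure of the arrays had a lower mean in the knockout group, though the groups overlapped. Background control probes rich in G and C averaged 6.32, 6.48 and 6.76 on the knockout arrays, against 6.60, 6.84 and 6.97 on the floxed arrays (p = 0.2 in a two-sided exact permutation test with n = 3 each, which cannot go below 0.1). Its part in the differences was not tested, and with it as a covariate the bright genes had a median of 0.03. For the lists that follow, a value for genes of the same brightness and the list median after quantile normalization are given beside most of the positive medians. For the former, each list gene took the median difference of its bin, and the middle of these values is given. It is often the value of a single bin, while brighter list genes lay in bins with medians up to 0.40. The bins rest on all 12 arrays, ileum included, so the value is a rough guide only.

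**Figure D2:**
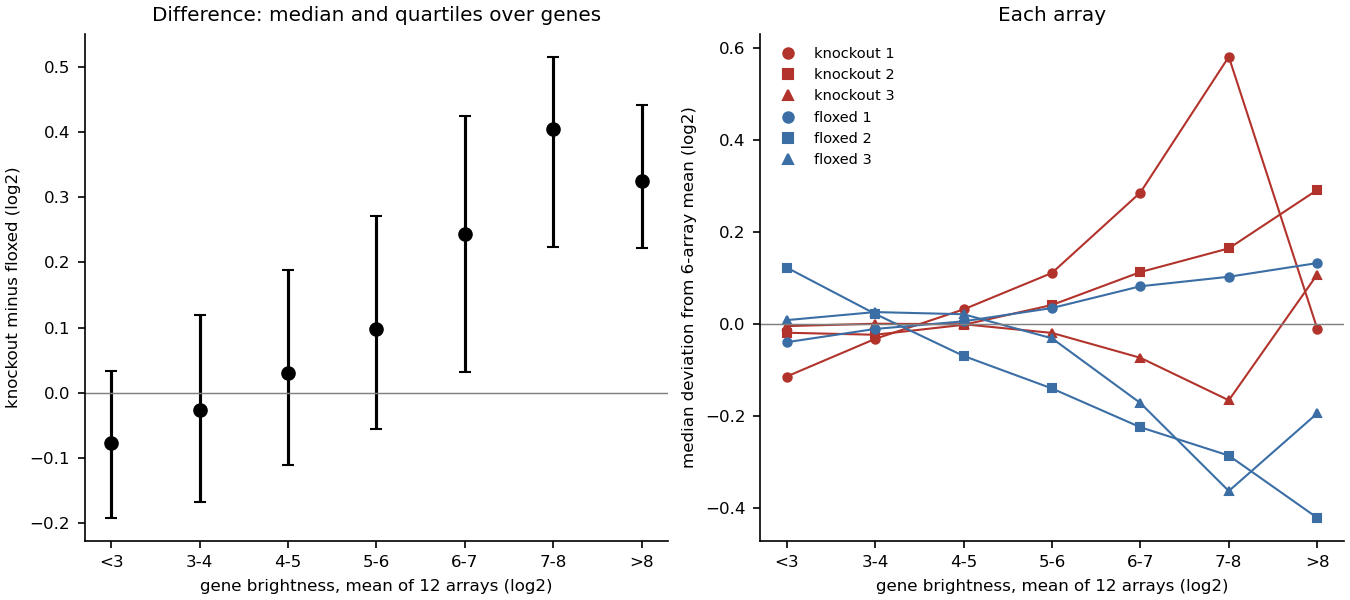
Left, knockout minus floxed difference (log2) by bin of gene brightness (mean of 12 arrays, log2), with points at the median over genes and bars from the lower to the upper quartile. Right, the median deviation of each colon array from the mean of the 6 arrays in the same bins: the bright genes run highest on knockout 1, except above 8, and low on floxed 2 and floxed 3.

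None of the 40 gene lists examined had a list mean that separated the knockout from the floxed arrays, although 31 of the 40 had a positive median difference. Knockout 1 had the highest list mean in 26 lists and floxed 2 the lowest in 20. Of 559 measured list entries, 35 lay higher and 9 lower on all knockout arrays, and 0 were called. Over all genes 4.04% lay higher and 6.18% lower. Many list genes were dim. No measured gene of the cell cycle, T cell, myeloid, endothelial, or neuron and glia lists averaged above the control level of 5.82. In the interferon list 1 of 17 did, in the crypt list 1 of 15 and in the proteasome list 2 of 20. Of genes named below for groups that did not overlap, Ehhadh, Dlat, Atp1b3, Mcm2, Psmb2 and Foxl1 lay below it on every colon array.

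**Figure D3:**
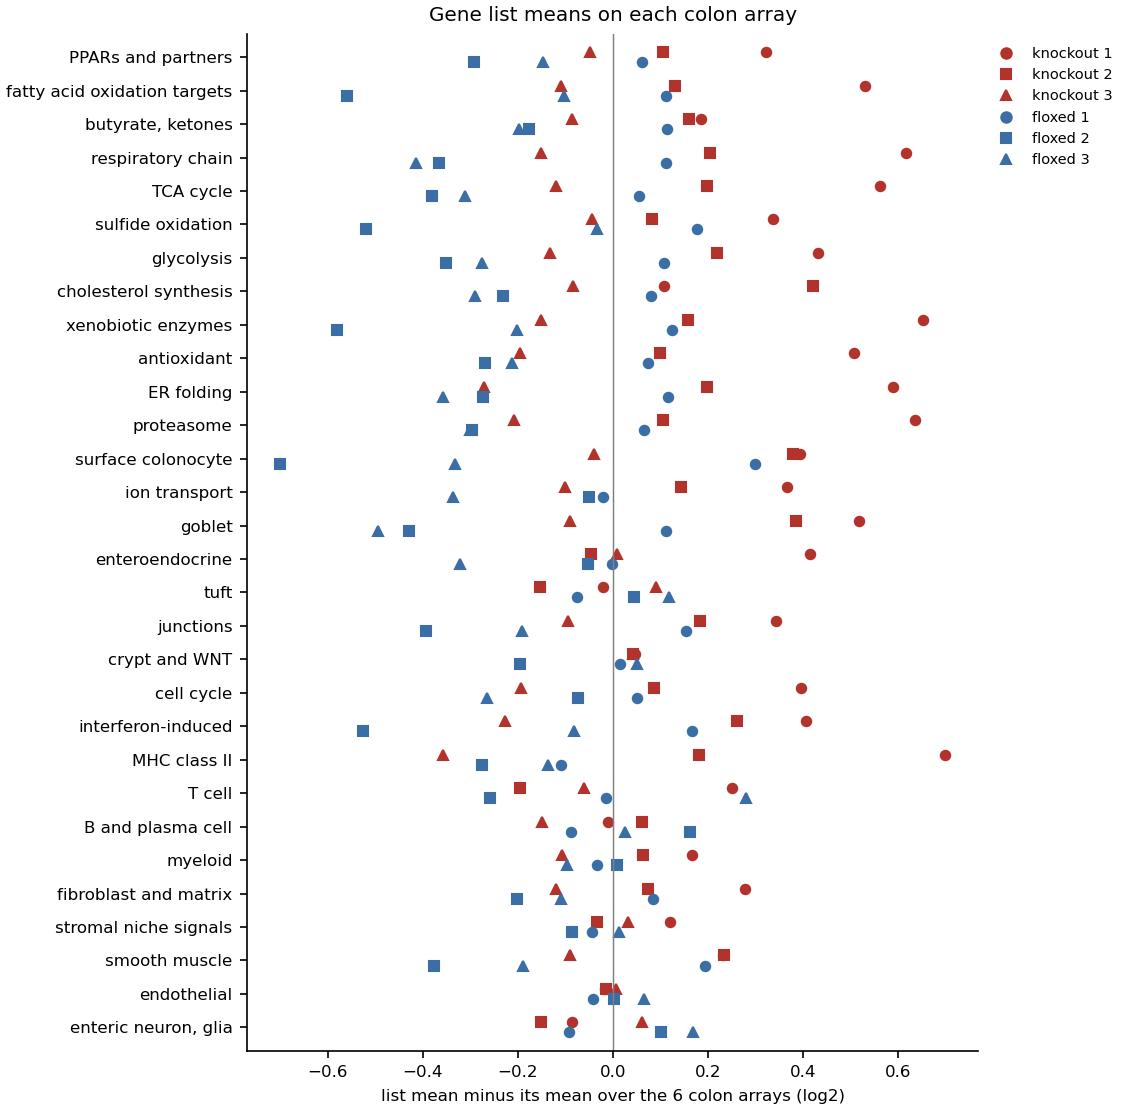
Mean of each gene list (rows) on each colon array, shown as its distance from the mean of the 6 colon arrays (x axis, log2), with knockout arrays above floxed arrays in each row. Knockout 1 lies far right in most metabolic lists, floxed 1 lies right of knockout 3 in most of them, and the groups overlap in every list.

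The receptor's own family and partners were considered first. Of 14 measured receptor and cofactor genes 12 had a positive difference, with a median of 0.26, where genes of the same brightness had 0.06. After quantile normalization it was 0.11, and it was 0.14 without knockout 1 and 0.17 without floxed 2. Pparg, the PPAR isotype that surface colonocytes use, was at 4.91, 3.89 and 4.10 on the knockout arrays, against 4.20, 2.80 and 3.40 on the floxed arrays. Its difference of 0.83 (standard error 0.31, adjusted p = 0.84 in limma) became 0.53 without knockout 1, 0.49 without floxed 2 and 0.19 without both. Rxrb, an RXR partner, was the gene of the list whose groups did not overlap, at 6.11, 5.97 and 6.28 on the knockout arrays, against 5.95, 5.77 and 5.93 on the floxed arrays. Hnf4a, a receptor that maintains the enterocyte programme, was at 6.97, 7.05 and 6.74 on the knockout arrays, against 6.97, 6.38 and 6.54 on the floxed arrays. Floxed 1 lay above knockout 3, so the groups overlapped, and the difference of 0.29 was 0.16 without floxed 2.

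Genes known as receptor targets, many of which act in fatty acid oxidation, had positive differences in 19 of 20. Their median was 0.40, against 0.10 for genes of the same brightness, and 0.25 after quantile normalization. It was 0.18 without knockout 1, 0.19 without floxed 2 and 0.02 without both, when 13 of 20 were positive. Cpt1a, which loads fatty acids onto carnitine for entry into mitochondria, was at 7.20, 6.39 and 6.00 on the knockout arrays, against 6.44, 5.52 and 6.11 on the floxed arrays. Hadha, a subunit of the trifunctional protein of beta-oxidation, was at 6.80, 6.30 and 5.88 on the knockout arrays, against 6.23, 5.22 and 5.87 on the floxed arrays. In both genes knockout 3 lay below floxed 1, and in Cpt1a below floxed 3 too. Without knockout 1 their differences of 0.51 and 0.55 were 0.17 and 0.32, and without floxed 2 they were 0.26 and 0.28. The peroxisomal enzyme gene Ehhadh did not overlap, at 4.84, 4.39 and 4.29 on the knockout arrays, against 3.94, 3.72 and 4.16 on the floxed arrays (difference 0.57, adjusted p = 0.84 in limma). Ucp2, a carrier of the inner mitochondrial membrane, had a difference of 0.47 (standard error 0.19), which was 0.31 without knockout 1. The 20 differences ran from -0.17 to 0.69, and none was called.

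Butyrate is the main fuel of colonocytes, taken up by carriers and turned into ketone bodies and acetyl-CoA. The 12 measured genes of this route had a median difference of 0.14, with 9 positive, against 0.03 for genes of the same brightness and 0.03 after quantile normalization. Slc5a8, a sodium-coupled butyrate carrier, was at 6.79, 6.60 and 5.86 on the knockout arrays, against 6.02, 5.88 and 5.55 on the floxed arrays. Knockout 3 lay below floxed 1 and floxed 2, and the difference was 0.60 (standard error 0.42). The ketone body dehydrogenase gene Bdh1 had a difference of 0.37 (standard error 0.20), with groups that just did not overlap, and one of 0.20 without floxed 2.

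The mitochondrial lists leaned to the knockout side. Subunits of the respiratory chain had positive differences in 29 of 32, with a median of 0.50, against 0.10 for genes of the same brightness and 0.22 after quantile normalization. That 0.10 is low for many of them, since 19 of the 32 averaged above 5.82 on the colon arrays. All genes between 6 and 7 had a median of 0.24. The list mean was 6.91, 6.50 and 6.14 on the knockout arrays, against 6.40, 5.93 and 5.88 on the floxed arrays, so floxed 1 lay above knockout 3. Without knockout 1 the median was 0.27 with 29 of 32 positive, and without both knockout 1 and floxed 2 it was 0.17 with 23 of 32. Sdhd, an anchor subunit of succinate dehydrogenase, was at 7.01, 6.52 and 6.02 on the knockout arrays, against 6.08, 5.75 and 5.60 on the floxed arrays, and its difference of 0.71 was 0.46 without knockout 1. The cytochrome oxidase subunits Cox5b and Cox6b1 had differences of 0.54 and 0.50 with standard errors of 0.40 and 0.36, and without knockout 1 these were 0.23 and 0.31.

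All 15 measured genes of pyruvate dehydrogenase and the tricarboxylic acid cycle had positive differences, from 0.12 to 0.95, with a median of 0.47 against 0.10 for genes of the same brightness. The median was 0.24 without knockout 1 and 0.33 without floxed 2, and 0.27 after quantile normalization. Dld, a dehydrogenase subunit that several of these complexes share, was at 5.59, 4.98 and 4.76 on the knockout arrays, against 4.88, 3.71 and 3.88 on the floxed arrays. Floxed 1 lay above knockout 3, and apart from the other floxed arrays. Dlat, the acetyltransferase of pyruvate dehydrogenase, did not overlap, at 4.47, 4.40 and 4.03 on the knockout arrays, against 3.73, 3.94 and 3.58 on the floxed arrays. Citrate synthase, Cs, had a difference of 0.49 (standard error 0.31). With array background as a covariate the medians of the respiratory chain and of the cycle were -0.05 and -0.025. No gene of these mitochondrial lists was called.

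Sugar and sterol metabolism came next. Glycolysis had 12 of 13 positive and a median of 0.31, which was 0.20 without knockout 1, against 0.24 for genes of the same brightness and 0.08 after quantile normalization. Gapdh, its best known enzyme, was at 9.65, 8.80 and 8.11 on the knockout arrays, against 8.32, 7.58 and 7.71 on the floxed arrays, with knockout 3 below floxed 1. Its difference of 0.98 was 0.59 without knockout 1. Gapdh has many pseudogene copies that can share signal, and is uncertain as a single gene. Cholesterol synthesis had 14 of 16 positive, and its median of 0.27 was 0.30 without knockout 1 and 0.23 without both knockout 1 and floxed 2. Genes of the same brightness had 0.10, and after quantile normalization the median was 0.19. Sc5d, the desaturase near the end of that pathway, was at 6.47, 6.22 and 5.70 on the knockout arrays, against 5.53, 5.24 and 4.80 on the floxed arrays. The groups did not overlap and its difference was 0.94 (standard error 0.33, adjusted p = 0.84 in limma). Fdps, which makes farnesyl diphosphate, had a difference of 0.74 (standard error 0.24). Knockout 2, not knockout 1, had the highest list mean here, at 5.38, where knockout 1 had 5.07.

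Enzymes that handle foreign compounds had 20 of 24 positive and a median of 0.44, against 0.06 for genes of the same brightness and 0.28 after quantile normalization. Without knockout 1 the median was 0.20, and without both knockout 1 and floxed 2 it was -0.01 with 11 of 24 positive. Cyp2c55, a cytochrome P450 of the colon, was at 9.65, 7.97 and 8.15 on the knockout arrays, against 8.80, 5.19 and 7.96 on the floxed arrays. Floxed 2 lay far below the rest, and the difference of 1.28 was 0.75 without knockout 1 and 0.22 without floxed 2, and turned to -0.31 without both. Cyp2s1, an epithelial P450, was tighter, at 6.03, 5.93 and 5.91 on the knockout arrays, against 5.80, 5.04 and 5.29 on the floxed arrays. Ugt2b5, a glucuronosyltransferase with close relatives whose rows may share signal, had a difference of 0.70 (standard error 0.24), which was 0.44 without knockout 1.

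Mature surface colonocytes absorb salt and water, and floxed 2 had the lowest mean of their markers. Of 20 genes 14 had positive differences, from -0.43 to 1.70, with a median of 0.48 against 0.24 for genes of the same brightness and 0.16 after quantile normalization, and it was 0.27 without floxed 2. Car1 was at 10.82, 10.29 and 9.78 on the knockout arrays, against 10.39, 7.33 and 9.16 on the floxed arrays. Its difference of 1.34 (adjusted p = 0.84 in limma) became 0.53 without floxed 2 and 0.26 without both knockout 1 and floxed 2. Guca2a, the gene of the peptide guanylin, was at 10.57, 10.47 and 9.91 on the knockout arrays, against 10.16, 8.55 and 9.77 on the floxed arrays. Its difference of 0.83 was 0.36 without floxed 2. Mall, a membrane protein gene of surface cells, had a difference of 0.85 (standard error 0.35), which was 0.43 without floxed 2 and 0.24 without both knockout 1 and floxed 2. Lypd8, which keeps flagellated bacteria off the epithelium, had a difference of 0.28, which was 0.18 without floxed 2. It turned to -0.12 without knockout 1 and to -0.04 after quantile normalization. The list mean was 7.19, 7.17 and 6.76 on the knockout arrays, against 7.09, 6.10 and 6.46 on the floxed arrays.

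Genes of ion transport had 13 of 15 positive, with a median of 0.30, against 0.03 for genes of the same brightness and 0.18 after quantile normalization. Atp1b3, a beta subunit of the sodium pump, separated the groups, at 4.48, 4.02 and 4.22 on the knockout arrays, against 3.58, 3.57 and 3.28 on the floxed arrays. Its difference of 0.76 (standard error 0.20, unadjusted p = 0.00198, adjusted p = 0.84 in limma) was 0.64 without knockout 1 and 0.81 without floxed 2. The sodium-proton exchanger gene Slc9a3 was at 7.13, 7.28 and 6.33 on the knockout arrays, against 6.70, 5.73 and 6.38 on the floxed arrays. Knockout 3 lay below floxed 1 and floxed 3, and the difference of 0.65 was 0.37 without floxed 2.

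Goblet cells secrete the mucus gel of the colon. Of 18 goblet genes 17 had positive differences, with a median of 0.30 against 0.24 for genes of the same brightness, and the median was 0.38 without knockout 1, 0.38 without floxed 2 and 0.28 without both. After quantile normalization it was 0.18, and none of the 18 separated the groups. Muc2, the gel-forming mucin, was at 12.09, 11.47 and 11.17 on the knockout arrays, against 11.47, 9.05 and 10.86 on the floxed arrays. Floxed 2 set much of that distance, and the difference of 1.12 was 0.41 without it. Spink4, a secreted protease inhibitor, was at 11.53, 10.41 and 10.28 on the knockout arrays, against 10.79, 9.55 and 9.52 on the floxed arrays, and its difference of 0.79 was 0.39 without knockout 1. Ang4, an antimicrobial ribonuclease, varied widely among the floxed arrays, at 6.16, 6.33 and 5.57 on the knockout arrays, against 5.88, 4.41 and 3.86 on the floxed arrays. Its difference was 1.30 (standard error 0.49, adjusted p = 0.84 in limma). Zg16, a lectin that aggregates bacteria in mucus, differed by 0.19, by 0.02 without knockout 1 and by -0.05 after quantile normalization.

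The other secretory lineages were mixed. Enteroendocrine genes had 11 of 14 positive and a median of 0.19, which was 0.08 without knockout 1, against 0.03 for genes of the same brightness and 0.15 after quantile normalization. Chgb, a protein of hormone granules, did not overlap, at 6.45, 5.54 and 5.72 on the knockout arrays, against 5.53, 4.77 and 5.31 on the floxed arrays, and its difference of 0.70 was 0.42 without knockout 1. Pyy, the hormone of L cells in the distal gut, was at 7.86, 6.75 and 6.56 on the knockout arrays, against 6.70, 7.42 and 5.76 on the floxed arrays, so floxed 2 was the second highest of the 6. Its difference of 0.43 was 0.03 without knockout 1 and 0.82 without floxed 2. Tuft cell markers, which belong to chemosensory cells of the epithelium, had 5 of 13 positive and a median of -0.07. Of these 13, Gnat3, Gfi1b and Trpm5 lay lower on all knockout arrays, and Trpm5 is named after its values had been seen. Over all genes 6.18% did so, and no tuft gene had a mean above 5.82, the 95th percentile of negative control rows. Gnat3, a taste-type G protein, was at 2.03, 2.31 and 2.30 on the knockout arrays, against 2.38, 2.53 and 2.35 on the floxed arrays, near the negative controls, and its difference of -0.21 was -0.12 without knockout 1. Gfi1b, a transcription factor of tuft cells, had a difference of -0.12 (standard error 0.16).

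Crypt base and WNT target genes stood at a median of 0.00, with 8 of 15 positive. It was 0.04 without knockout 1, with 9 of 15, and -0.01 without floxed 2, with 6 of 15. Ephb2, a receptor graded along the crypt, was at 5.89, 5.92 and 5.38 on the knockout arrays, against 5.55, 5.43 and 5.24 on the floxed arrays. Cdca7, a WNT-responsive gene in this list, had a difference of 0.42 (standard error 0.17), and Prom1 one of 0.80 (standard error 0.42). Without floxed 2, which was the lowest array for Prom1 at 3.67, that difference was 0.25. Cell cycle genes had 13 of 19 positive and a median of 0.16, which was 0.04 without knockout 1, against 0.03 for genes of the same brightness and 0.11 after quantile normalization. Ube2c, which helps to end mitosis, was at 6.38, 5.82 and 5.92 on the knockout arrays, against 5.98, 5.35 and 5.32 on the floxed arrays. Knockout 2 and knockout 3 lay below floxed 1, and the difference of 0.49 was 0.32 without knockout 1. The licensing factor gene Mcm2 had a difference of 0.28 (standard error 0.16), with groups that did not overlap.

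Junction genes, which seal neighbouring epithelial cells, had 13 of 15 positive and a median of 0.27, against 0.24 for genes of the same brightness and 0.10 after quantile normalization. The median was 0.08 without both knockout 1 and floxed 2. Cdh1, the adherens junction cadherin, was at 8.38, 8.15 and 7.49 on the knockout arrays, against 7.77, 7.62 and 7.17 on the floxed arrays, and its difference of 0.48 was 0.30 without knockout 1. Cldn15, a claudin that lets cations through, was at 6.85, 6.45 and 5.99 on the knockout arrays, against 6.20, 4.64 and 6.06 on the floxed arrays, where floxed 2 again lay apart, and its difference of 0.79 was 0.29 without floxed 2. Marveld2, the protein of junctions between 3 cells, was tight within groups, at 5.52, 5.49 and 5.53 on the knockout arrays, against 5.37, 5.12 and 5.29 on the floxed arrays. Its difference was 0.25 (standard error 0.12, adjusted p = 0.84 in limma).

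Lists of protein folding, protein turnover and antioxidant defence depended on knockout 1. Proteasome subunits had 19 of 20 positive and a median of 0.32, which was 0.07 without knockout 1. Antioxidant genes had 14 of 16 positive and a median of 0.28, which was 0.03 without knockout 1. Folding factors of the endoplasmic reticulum had 17 of 18 positive and a median of 0.38, which was 0.14 without knockout 1. Genes of the same brightness had 0.10 in each case, and after quantile normalization the 3 medians were 0.26, 0.13 and 0.22. The list mean of the folding factors on knockout 1 was 6.21, while knockout 3, at 5.35, equalled floxed 2. Psmb2, a catalytic-core subunit of the proteasome, kept its distance, at 5.72, 5.50 and 5.40 on the knockout arrays, against 4.76, 4.57 and 4.58 on the floxed arrays. Its difference was 0.90 (standard error 0.22, unadjusted p = 0.00112, adjusted p = 0.84 in limma) and 0.81 without knockout 1. Txn1, the gene of thioredoxin, lay between 7.53 and 8.43 on the knockout arrays, above all floxed arrays, with a difference of 0.80 (standard error 0.39). P4hb, a disulfide isomerase, had a difference of 0.55 (standard error 0.37), which was 0.26 without knockout 1, 0.35 without floxed 2 and 0.06 without both. Heat shock and immediate early genes, which respond to tissue handling, stood at a median of -0.02 with 5 of 14 positive. It was -0.05 without knockout 1 and -0.045 without floxed 2. In that list the inducible chaperone gene Hspa1b, which has a near-identical copy and is uncertain as a single gene, had a difference of 0.91 (standard error 0.28).

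Among immune genes, interferon-induced genes had 13 of 17 positive and a median of 0.32, which was 0.14 without knockout 1 and 0.03 without floxed 2. Genes of the same brightness had -0.03, and after quantile normalization it was 0.30. Isg15, a ubiquitin-like protein, was at 6.50, 6.56 and 4.79 on the knockout arrays, against 6.02, 3.86 and 5.81 on the floxed arrays, a wide spread in both groups. Its difference of 0.72 was 0.44 without knockout 1 and 0.04 without floxed 2. Oas2, a sensor of double-stranded RNA, had a difference of 0.52 (standard error 0.20). Antigen presentation genes of MHC class II had 7 of 8 positive and a median of 0.37, which was 0.10 without knockout 1, against 0.10 for genes of the same brightness and 0.26 after quantile normalization. Cd74, the invariant chain, was at 7.79, 6.45 and 5.13 on the knockout arrays, against 5.80, 5.58 and 5.92 on the floxed arrays, so knockout 3 was the lowest of the 6 and knockout 1 the highest. Its difference of 0.69 was 0.03 without knockout 1. T cell genes had 6 of 12 positive and a median of -0.055, B and plasma cell genes 3 of 10 and -0.15, and myeloid genes 9 of 15 and 0.08. The T cell list had 4 of 12 positive and a median of -0.16 without knockout 1, 2 of 12 and -0.14 without floxed 2, and 0 of 12 and -0.16 without both. Without knockout 1 the B and plasma cell median was -0.05 and the myeloid median 0.00. Cd8a, the coreceptor of intraepithelial T cells, was at 5.32, 4.95 and 5.29 on the knockout arrays, against 5.09, 3.96 and 5.28 on the floxed arrays, and its difference of 0.41 was -0.003 without floxed 2. Sdc1, a syndecan of plasma cells and of epithelium, had a difference of 0.32 (standard error 0.14), while the B cell receptor component Cd79a had one of -0.49 (standard error 0.24). The complement gene C1qb of tissue macrophages did not overlap, at 5.80, 5.44 and 5.58 on the knockout arrays, against 5.05, 5.31 and 5.10 on the floxed arrays. The endotoxin coreceptor gene Cd14 had a difference of -0.34 (standard error 0.18).

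The stroma holds the cells that the Cre is named for. Fibroblast and matrix genes had 14 of 18 positive and a median of 0.15, against 0.10 for genes of the same brightness. The median was 0.07 without knockout 1, 0.06 without floxed 2, -0.03 without both and -0.01 after quantile normalization. Col1a1, a chain of type I collagen, was at 7.83, 7.62 and 7.39 on the knockout arrays, against 7.79, 7.18 and 7.34 on the floxed arrays, with a difference of 0.17 that was 0.07 without knockout 1 and 0.04 without floxed 2 and turned to -0.16 after quantile normalization. Fibronectin, Fn1, did not overlap, at 6.52, 6.52 and 6.38 on the knockout arrays, against 6.12, 6.22 and 5.94 on the floxed arrays. Nor did periostin, Postn, at 5.67, 5.48 and 5.18 on the knockout arrays, against 4.99, 4.88 and 4.77 on the floxed arrays. Of the 18, Pdgfrb, a receptor of mesenchymal cells named after its values had been seen, was the other gene that lay higher on all knockout arrays, and S100a4 the gene that lay lower. The shares over all genes were 4.04% higher and 6.18% lower. The differences of Fn1 and Postn were 0.38 and 0.56, with standard errors of 0.18 and 0.28 (adjusted p = 0.84 in limma for each). Smooth muscle genes had 10 of 11 positive and a median of 0.23, which was 0.14 without floxed 2, with Acta2, the actin of muscle and myofibroblasts, at a difference of 0.56 (standard error 0.43). Endothelial genes stood at a median of 0.00 with 5 of 11 positive, and genes of enteric neurons and glia at -0.20 with 3 of 9. The neuron and glia median was -0.10 without floxed 2 and -0.02 without both knockout 1 and floxed 2, and the endothelial one -0.02 without either array alone.

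Niche signals, by which the stroma and epithelium instruct the crypt, had a median of 0.07 with 12 of 19 positive. It was 0.01 without knockout 1, turned to -0.03 without floxed 2, with 9 of 19 positive, and was -0.06 without both, with 7 of 19. Among the forkhead genes of this list, Foxl1 and Foxf1 had narrow groups, and Foxl1 lay below the control level of 5.82. Foxl1, a marker of telocytes under the epithelium, was at 4.51, 4.54 and 4.51 on the knockout arrays, against 4.06, 4.05 and 3.99 on the floxed arrays. Foxf1, a regulator of gut mesenchyme, was at 6.09, 6.30 and 6.25 on the knockout arrays, against 5.75, 5.69 and 5.94 on the floxed arrays. All knockout arrays lay above all floxed arrays in both. The differences were 0.49 and 0.42, with standard errors of 0.14 and 0.17 (unadjusted p = 0.00407 and 0.0266, adjusted p = 0.84 in limma for each). Foxl1 differed by 0.49 without knockout 1 and by 0.49 without floxed 2, and Foxf1 by 0.49 and 0.37. In the ileum the differences of the same genes were -0.13 and -0.30. The difference between the tissues was not called for either (adjusted p = 1.00 in limma), in a test that took all arrays as independent. Over all genes 4.04% lay higher on all knockout colon arrays, and these forkhead genes were 2 of 19 in their list. The other niche genes overlapped between the groups.

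**Figure D4:**
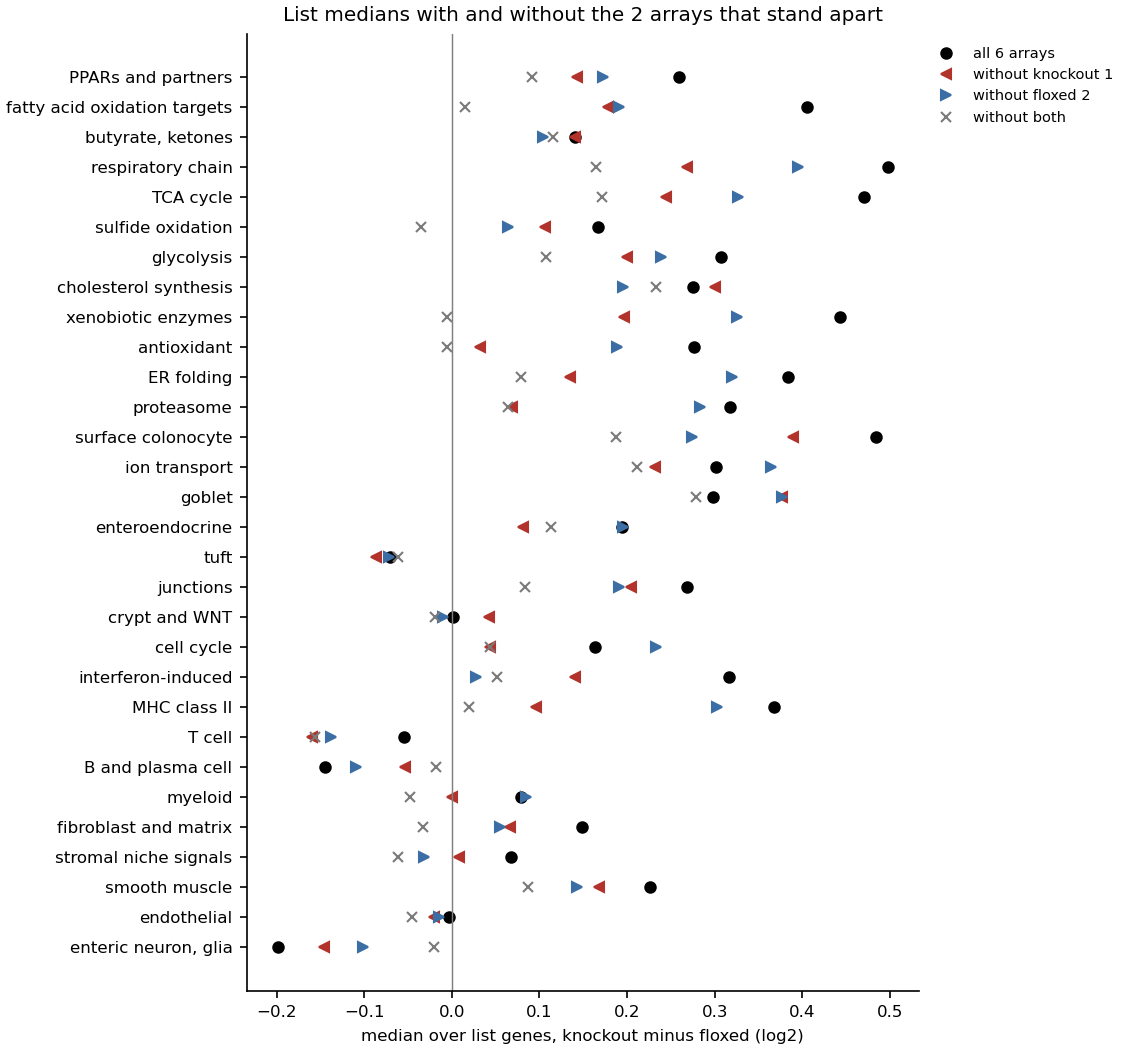
Median knockout minus floxed difference over the genes of each list (x axis, log2) with all 6 colon arrays, without knockout 1, without floxed 2 and without both. Most metabolic medians lie nearer to 0 without knockout 1, while goblet genes (0.30 with all arrays, 0.28 without both) and cholesterol synthesis (0.27 and 0.23) moved little.

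Markers of other cells the samples could hold were examined as well. Genes of small intestinal enterocytes had a median of 0.09 with 7 of 12 positive, which was 0.05 without floxed 2, and Paneth cell genes 0.17 with 5 of 7. Reg3g from that list was at 10.10, 7.75 and 6.99 on the knockout arrays, against 8.63, 4.10 and 6.70 on the floxed arrays. Its groups overlapped, and its difference of 1.80 was 0.89 without knockout 1 and 0.62 without floxed 2. Squamous genes had 8 of 11 positive, exocrine pancreas genes 2 of 10, fat cell genes 3 of 7 and red cell genes 1 of 2, and no gene of these 4 lists had a mean above 5.82. Their medians, 0.03, -0.15, -0.11 and -0.12 in that order, moved most for squamous genes without knockout 1 (0.13), pancreas genes without floxed 2 (-0.003) and red cell genes without floxed 2 (-0.20). Ribosomal protein genes had 11 of 14 positive and a median of 0.24, which was 0.07 without knockout 1, against 0.28 for genes of the same brightness and 0.02 after quantile normalization.

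Among genes with at least 3 rows and above-median brightness, 710 lay higher and 506 lower on all knockout arrays. Over all genes the balance was the reverse, with 4.04% higher and 6.18% lower. The filter keeps the brighter genes, and of all genes above the median level 62.3% had a positive difference. The 10 largest named differences each way are given here without a test of their own. The highest was Dazap2, at 8.22, 6.51 and 6.70 on the knockout arrays, against 6.29, 5.80 and 6.07 on the floxed arrays, 2.13-fold. Knockout 1 set much of it, since the difference of 1.09 was 0.56 without that array. Med9, a subunit of the Mediator complex, was steadier, at 6.36, 6.26 and 6.02 on the knockout arrays, against 5.70, 4.81 and 4.96 on the floxed arrays. Its difference was 1.06 (standard error 0.27, adjusted p = 0.84 in limma) and 0.98 without knockout 1. Gdi2, which recycles Rab proteins, was at 5.99, 5.41 and 4.86 on the knockout arrays, against 4.71, 4.38 and 4.00 on the floxed arrays. The complex I subunit Ndufs4 and the scramblase Plscr1, an interferon-induced gene, each had a difference of 1.00, and for both floxed 2 was the lowest array. Without floxed 2 these were 0.66 and 0.70. Sfr1 (1.01), Rpl14 (0.98), Ywhaq (0.97), Ifit1bl1 (0.96) and Sc5d (0.94) completed the 10. Without knockout 1 these 10 differences lay between 0.53 and 0.98.

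The lowest was Ezhip, an inhibitor of the Polycomb methyltransferase, at 4.67, 4.41 and 5.22 on the knockout arrays, against 5.28, 5.77 and 5.94 on the floxed arrays, with a difference of -0.90 (standard error 0.26). Tomm20l, a relative of a mitochondrial import receptor, was at 3.15, 3.21 and 3.78 on the knockout arrays, against 3.93, 4.17 and 4.69 on the floxed arrays. Without knockout 1 their differences were -0.85 and -0.77, and neither was called (adjusted p = 0.84 in limma). Calcoco2, an autophagy receptor gene, was at 3.67, 3.23 and 3.42 on the knockout arrays, against 4.17, 4.66 and 3.95 on the floxed arrays. Nupr1l (-0.82), Zfp712 (-0.75), Lgals2 (-0.72), Tmem121 (-0.72) and Tmem169 (-0.72) also lay lower on all knockout arrays. Lgals2 averaged 3.50 over the colon arrays and 5.93 over all 12, so it passed the filter on brightness through its ileum level, and its colon values lay below the control level of 5.82. Over its exon regions alone its difference was 0.555, the other way. The defensin pseudogenes Defa-ps1 and Defa-ps6 (-0.77 each) had identical colon values although no row counted for both, so they are uncertain as single genes. They averaged 3.79 over the colon arrays against 6.03 over all 12. Of the 20 genes, only Dazap2 and Tmem121, with means of 6.60 and 6.55 over the colon arrays, lay above the control level of 5.82. The others named here, in both directions, rest on dimmer signal. None of the 20 genes was called.

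**Figure D5:**
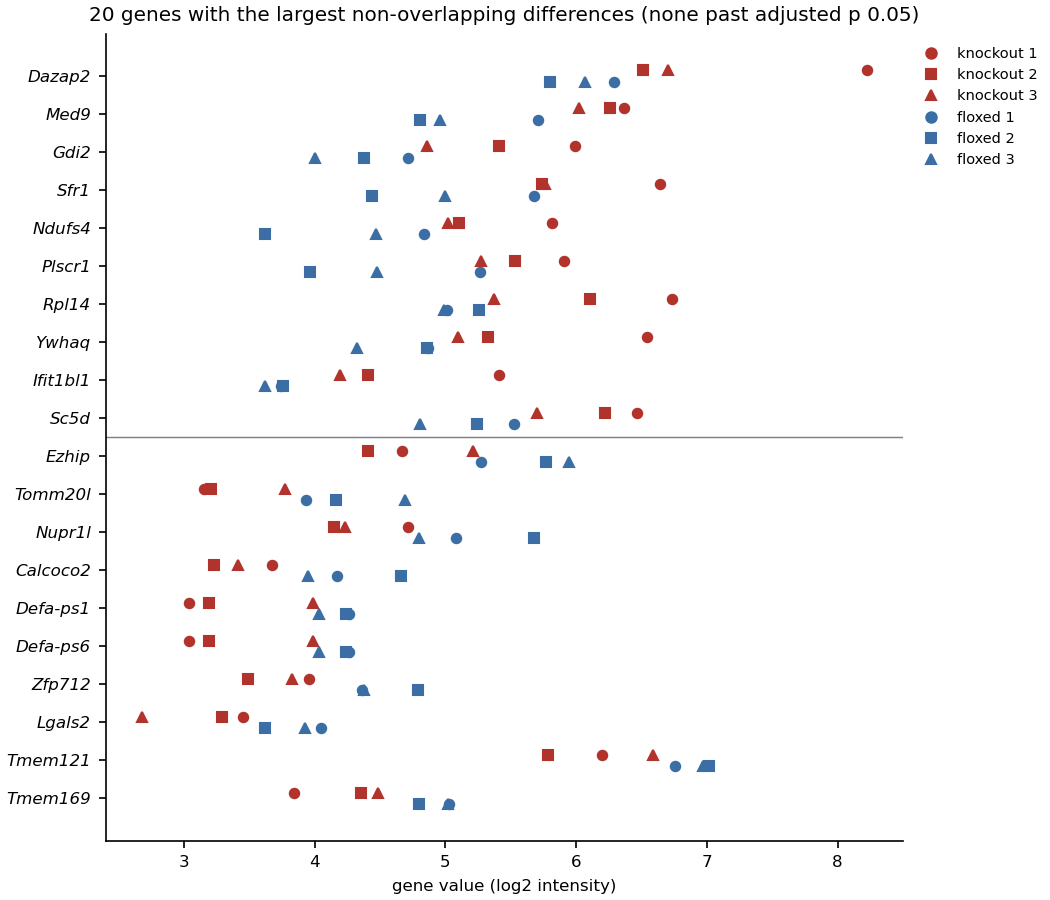
Gene values (x axis, log2 intensity) on each colon array of the 10 genes with the largest higher and the 10 with the largest lower differences among genes whose groups do not overlap, with knockout arrays above floxed arrays in each row. None passed an adjusted p of 0.05, and knockout 1 lies apart in genes such as Dazap2 (8.22).

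Whether the colon difference differed from the ileum difference was tested as the interaction of genotype and tissue. The fit took all arrays as independent, and the labels do not say whether same-numbered colon and ileum arrays shared a mouse. A colon and an ileum knockout array of the same number shared the low Xist pattern (3.27 and 3.26). If arrays shared mice, the error of this test is misstated, so a lack of calls does not show that the tissues were alike. No gene passed, with 0 of 31276 called (0.0%), 775 at an unadjusted p under 0.05 (2.48%) and a smallest adjusted p of 1.00 in limma. With the replicate number as a block, 968 genes were at an unadjusted p under 0.05 in limma and 0 were called. Without the block, the median 95% interval of such a difference of differences reached 0.57 to either side. The 5 genes of smallest p were Calcb, Mtif3, Lgals2, Rasl11a and Smbd1. Calcb, a gene of the CGRP neuropeptide family, was at 3.91, 3.91 and 3.95 on the knockout colon arrays, against 3.33, 3.41 and 3.70 on the floxed colon arrays. In the ileum it was at 3.01, 3.11 and 3.30 on the knockout arrays, against 3.61, 3.93 and 4.08 on the floxed arrays. Rasl11a, a small GTPase gene, was at 3.85, 4.19 and 4.14 on the knockout colon arrays, against 4.75, 4.63 and 4.93 on the floxed colon arrays, and its ileum difference was 0.09. The mitochondrial initiation factor gene Mtif3 had a colon difference of 0.59 and an ileum difference of -0.54, and Smbd1 had 0.26 and -0.65. Of the 31276 genes, 128 lay higher and 178 lower on all knockout arrays in both tissues, and 60 (0.192%) were separate in opposite directions. In the colon alone 4.04% of all genes lay higher and 6.18% lower. No expected number was worked out for the counts over both tissues, so they are not read as likeness between the tissues.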

How the data were processed

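Mucosa RNA of 12 samples in 4 groups of 3 was measured on exon and junction arrays. The deposited values are log2 intensities that the authors made with RMA in Partek, per the submitters' processing notes, whose versions and settings are not given in the sources used here. RMA draws array distributions together, which can hide a shift shared by most genes. Of 725678 rows, 580167 carry exactly 1 gene symbol and gave 31276 genes by the median over rows. Group means of all 12 arrays were fitted with limma 3.58.1 in R 4.3.3, with adjusted p under 0.05 as the threshold; a simulation with known changes was run first. Python 3.11.15 made summaries. The genes named were the target and the Cre driver, the 10 largest non-overlapping differences each way, the 3 brightest and the 2 of smallest p in each list, and the 5 of smallest p between tissues, with exceptions stated. Members and gene lists were chosen with earlier results of these data known. Of 600 list entries, 559 were measured. Alternatives covered scaling, gene summary, filters, array background, the replicate number and arrays left out. Coordinates and sequences were not used here.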

Additional observations from a re-analysis of the deposited data

Results flagged for a closer look

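In 4 named genes the knockout arrays lay wholly on one side of the floxed arrays in the colon and wholly on the other in the ileum, which 60 of 31276 genes (0.192%) did. The difference between tissues was tested with all arrays taken as independent, and none passed (adjusted p = 1.00 in limma for each). Groups of 3 were too small for the check of single outlying samples. Lgals2, a galectin gene, had a colon difference of -0.72 and an ileum difference of 1.25, so the colon minus ileum value was -1.97. In the ileum it was at 9.89, 8.57 and 8.50 on the knockout arrays, against 7.75, 7.44 and 8.02 on the floxed arrays. Its colon values, from 2.68 to 4.05, lay below 5.82, the 95th percentile of negative control rows, so the colon side of this pattern rests on dim signal, and over exon regions alone the colon difference was 0.555. Calcb had a colon minus ileum value of 1.18 and Mtif3 one of 1.13. Marveld2 had 0.55, from a colon difference of 0.25 and an ileum difference of -0.29.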

How the results depend on the processing

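The count of genes called stayed at 0 under all 19 alternatives for the colon and all 17 for the interaction, and that of rows at 0 under all 9. Colon genes at an unadjusted p under 0.05 numbered 1494, between 804 (without knockout 1 and floxed 2) and 2945. With the replicate block, 2350 genes reached it and 0 were called (smallest adjusted p = 0.476 in limma), and within the 6 colon arrays 2945 and 0 (smallest adjusted p = 0.256 in limma). Within the colon, deviations of same-numbered knockout and floxed arrays correlated at 0.352, 0.047 and 0.383. Knockout 2 correlated at 0.063 with floxed 1, so the numbers were not taken as pairs of a knockout and a floxed array. Colon and ileum arrays were not compared in this way. The alternatives without knockout 1 together with ileum knockout 1 or with floxed 2 were chosen after seeing the data. Lists with a positive median numbered 31, 20 with array background as a covariate, and 28 to 33 with each array left out. The Ppard difference lay between -0.043 and 0.377 with each array left out. It was -0.136 after quantile normalization, -0.154 with the covariate, -0.043 without both knockout 1 arrays and -0.075 without knockout 1 and floxed 2. None of the differences that changed sign had been called, and the cause was not tested. After quantile normalization Lypd8 was -0.041, Zg16 -0.051 and Col1a1 -0.156. With the covariate Slc5a8 was -0.156, Lypd8 -0.258, Zg16 -0.182, Spink4 -0.163, Gfi1b 0.061, Cdh1 -0.030, Cox5b -0.136, Cox6b1 -0.150, Cs -0.038, P4hb -0.097, Cd74 -0.204 and Acta2 -0.125. Without knockout 1 and floxed 2, Cpt1a was -0.080, Lypd8 -0.221, Cyp2c55 -0.314, Isg15 -0.241, Cd74 -0.063, Cd8a -0.070 and Col1a1 -0.064. With each array left out Lypd8 lay between -0.120 and 0.558, Pyy between -0.005 and 0.824, and Cd8a between -0.003 and 0.659, and Lypd8 was -0.120 without both knockout 1 arrays. On exon regions alone Lgals2 was 0.555 and Cd79a 0.302. The interaction could not be fitted on colon arrays alone.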

Other observations

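Genes of sulfide oxidation, by which colonocytes clear hydrogen sulfide made by bacteria, had positive differences in 8 of 8, with a median of 0.17 against 0.10 for genes of the same brightness. The median was 0.11 without knockout 1, 0.06 without floxed 2 and -0.03 without both knockout 1 and floxed 2, when 3 of 8 stayed positive. Genes of regional identity, most of them homeobox and GATA factors, had 8 of 15 positive and a median of 0.02, which was -0.13 without floxed 2.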
